A study of Ursus arctos with 12 samples.

Results

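Periostin, SPARC, SPARCL1, tenascin-C, tenascin-X, the 4 thrombospondins THBS1 to THBS4 and fibronectin are secreted glycoproteins of the extracellular matrix. They were taken from the deposited table of reads per gene by their symbols, POSTN, SPARC, SPARCL1, TNC, TNXB, THBS1, THBS2, THBS3, THBS4 and FN1, which gave 10 of the 30249 genes listed. The samples were biopsies of the vastus lateralis, a thigh muscle, from 6 free-ranging brown bears (Ursus arctos) that were 2 to 3 years old. Each bear gave a winter library, from hibernation, and a summer library, from the active period, so that 12 libraries were compared, 6 per season. Season stands for hibernation, fasting, inactivity, temperature and date together, and these cannot be told apart in this design.

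Proteins of this kind sit among the collagen fibres that surround muscle fibres and tendons. Fibronectin is a scaffold on which cells, through integrins, assemble new matrix. Periostin, SPARC, the tenascins and the thrombospondins are called matricellular proteins because they bind both matrix and cell surfaces and tune adhesion, collagen assembly and growth factor activity more than they bear load. In skeletal muscle they are made largely by fibroblasts, tendon cells and vessel cells, and many of them are known as genes of tissue repair and fibrosis.

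The fitted winter level lay below the summer level for all 10 transcripts, with 6 called. Levels are given as CPM, the reads of a gene relative to the TMM-scaled total of its library. The quasi-likelihood test of edgeR was used, with p values adjusted by the Benjamini-Hochberg method over the 17290 genes tested, and a gene was called when its adjusted p lay below 0.05. In 59 of the 60 comparisons of a gene within a bear the winter library was below the summer library. These 60 are not independent of each other, and the like share over all genes was not counted. Of the 10 genes, 9 were lower in 6 of 6 bears, as were 19% of all genes tested. With season as the only term, 6 of the 10 were called lower (POSTN, SPARC, SPARCL1, TNC, THBS3 and FN1), against 19.9% of all genes tested, and 0 were called higher (0 without adjustment), against 19.6% of all genes. A fit with the bear as a replicate block, which compares the seasons within each animal, called 10 of 10 lower, against 21.2% of all genes, and 0 higher, against 19.6%. Other tools called 8 lower in limma voom (20.5% of all genes), 6 in DESeq2 (20.9%) and 10 in DESeq2 with the block (20.2%), and 0 higher in each of the 3 (19.2, 20.4 and 18.8% of all genes). The median log2 fold change of the 10 was −1.88 (−1.99 with the block), where that of all genes tested was −0.002. Stricter limits, a fold change below 0.77 together with an adjusted p below 0.01, were passed by 5 of the 10, against 12% of all genes. Together the 10 genes held 0.242 to 0.605% of a library's reads in summer and 0.0471 to 0.153% in winter.

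**Figure D1:**
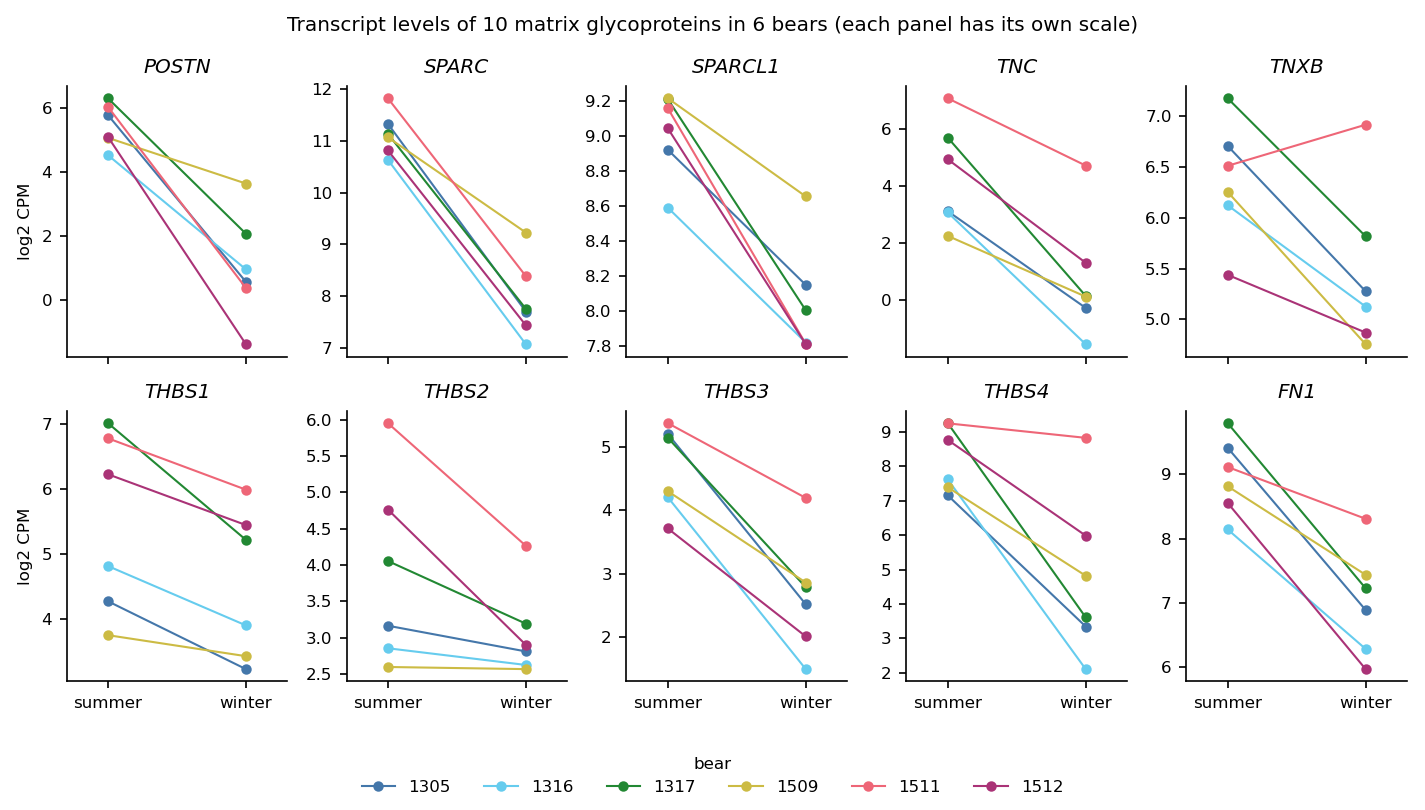
Level of each transcript (log2 CPM) in the summer and the winter library of each bear, joined by a line, with a scale of its own in each panel. 59 of the 60 lines run downwards, the exception being TNXB in bear 1511.

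Periostin and SPARC showed the largest separation between seasons. POSTN, a collagen-binding protein that is abundant in connective tissue under repair, lay at 23.1 to 79.7 CPM in summer (median 44.8) and at 0.293 to 12.4 CPM in winter (median 1.62). The 6 winter libraries did not overlap the 6 summer libraries. The log2 fold change of POSTN came to −3.81 (SE 0.66, adjusted p = 0.000586), a level 14.1-fold lower in winter (SE is the standard error on the log2 scale), with 484 to 1835 reads per summer library and 9 to 225 per winter library. Bears differed widely in its fall. In bear 1512 the level fell from 34.4 to 0.293 CPM, and in bear 1509 from 33.7 to 12.4 CPM, which made bear 1509 the highest winter library. Without bear 1509 the log2 fold change of POSTN was −4.90 (adjusted p = 6e-05).

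SPARC, a collagen-binding glycoprotein that takes part in the processing and deposition of fibrillar collagen, lay at 1585 to 3605 CPM in summer (median 2192) and at 135 to 600.4 CPM in winter (median 213). Summer and winter again did not overlap, so that 2 of the 10 genes were fully separated, where 8.21% of all genes tested had each winter library below each summer library. Its log2 fold change was −3.06 (SE 0.35, adjusted p = 3.12e-05). In 5 bears the fall was 10.3-fold to 12.3-fold, while in bear 1509 it was 3.57-fold. SPARC held 57.7% of the reads of the 10 genes in summer and 30.9% in winter.

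SPARCL1, also called hevin, is the closest relative of SPARC and is known from vessel walls. It had the smallest fall among the 6 called genes. Its level lay at 386 to 595 CPM in summer (median 550.2) and at 224 to 403 CPM in winter (median 241), with 5 of the 6 winter libraries below every summer library. The winter library of bear 1509, at 403 CPM, lay above the summer library of bear 1316, at 386 CPM. The log2 fold change was −0.96 (SE 0.16, adjusted p = 0.000444), and in single bears it ran from −1.35 to −0.56.

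Fibronectin followed the pattern of a called fall with a large spread in winter. FN1 lay at 282 to 891 CPM in summer (median 502.5) and at 62.4 to 317 CPM in winter (median 134). Only the winter library of bear 1511, at 317 CPM, reached the summer range. The log2 fold change came to −1.85 (SE 0.37, adjusted p = 0.00158). FN1 was lower in 6 of 6 bears, by 1.75-fold in bear 1511 and by up to 6.03-fold in bear 1512.

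The tenascins are large glycoproteins of tendon, fascia and the connective tissue between muscle bundles. TNC is induced by mechanical load and injury. It varied more between bears of one season than any other of the 10 genes did in summer, from 4.65 to 135 CPM (median 19.5), and lay at 0.252 to 26.2 CPM in winter (median 1.00). The highest summer and the highest winter library both came from bear 1511. TNC was lower in 6 of 6 bears, by 4.69-fold in bear 1509 to 51.1-fold in bear 1317. With season as the only term its log2 fold change was −2.96 (SE 1.08, adjusted p = 0.042), and this call was lost without bear 1305, 1316, 1317, 1509 or 1512 (adjusted p = 0.0731, 0.0617, 0.114, 0.0529 and 0.099) and without the winter library of bear 1509 (0.0651). With the bear as a replicate block it was −3.60 (SE 0.40, adjusted p = 9.6e-05), without bear 1511 it was −4.23 (adjusted p = 0.00113), and without the winter library of bear 1511 alone it was −5.16 (adjusted p = 0.00101).

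TNXB, whose loss in people causes a form of Ehlers-Danlos syndrome with lax skin and joints, lay at 43.3 to 145 CPM in summer (median 83.8) and at 26.9 to 121 CPM in winter (median 36.8). It was lower in 5 of 6 bears. In bear 1511 it stood at 91.3 CPM in summer and 121 CPM in winter, the single case among the 10 genes in which a winter level was the higher. For TNXB the log2 fold change was −0.79 (SE 0.36, adjusted p = 0.0986), short of the threshold. A block for the bear brought a call at −0.92 (adjusted p = 0.00846), as did limma voom (adjusted p = 0.0417) and the fit without bear 1511, at −1.24 (adjusted p = 0.0068).

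Thrombospondins bind calcium, collagens, integrins and heparan sulfate. THBS1 and THBS2 form one branch of the family, known for inhibiting vessel growth through CD36, and THBS1 also for activating latent TGF-β. THBS1 lay at 13.3 to 129 CPM in summer (median 51.3) and at 9.27 to 63.4 CPM in winter (median 25.9), and THBS2 at 5.97 to 61.8 CPM (median 12.7) and 5.85 to 19.1 CPM (median 7.17). The seasons overlapped broadly for both. The differences between bears were larger than the seasonal differences, with bears 1317, 1511 and 1512 the 3 highest in summer and again the 3 highest in winter for each gene. Within each bear both genes were lower in winter in 6 of 6, THBS1 by 1.25-fold to 3.48-fold, and THBS2 by 1.02-fold in bear 1509 to 3.66-fold in bear 1512. With season as the only term neither was called. The log2 fold change of THBS1 stood at −1.07 (SE 0.60, adjusted p = 0.171) and that of THBS2 at −1.23 (SE 0.53, adjusted p = 0.078). With the bear as a replicate block both were called, THBS1 at −0.95 (SE 0.16, adjusted p = 0.00119) and THBS2 at −0.87 (SE 0.25, adjusted p = 0.0161). Without the winter library of bear 1511 alone, THBS2 was called as well (log2 fold change −1.59, adjusted p = 0.0307), while THBS1 was not (−1.43, adjusted p = 0.079).

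THBS3 and THBS4 belong to the other branch, with cartilage oligomeric matrix protein (COMP), and THBS4 is abundant in tendon. THBS3 lay at 13.0 to 41.4 CPM in summer (median 27.4) and at 2.73 to 18.2 CPM in winter (median 6.22), and only the winter library of bear 1511 reached the summer range. Its log2 fold change was −1.90 (SE 0.42, adjusted p = 0.00273), lower in 6 of 6 bears by 2.27-fold to 6.73-fold. THBS4 lay at 143 to 614 CPM in summer (median 317) and at 4.20 to 456 CPM in winter (median 20.1). The winter range was set by bear 1511, which fell only from 612 to 456 CPM, while the other winter libraries lay between 4.20 and 63.3 CPM and below every summer library. Bear 1317, at 614 CPM in summer, fell to 12.1 CPM, a 50.7-fold difference.

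The estimate for THBS4 differed with the model and with bear 1511 left out. With season as the only term THBS4 missed the threshold at −1.92 (SE 0.94, adjusted p = 0.119). With a replicate block for the bear the log2 fold change was −3.47 (SE 0.64, adjusted p = 0.00177), and it was −3.72 without bear 1511 (adjusted p = 0.00178) and −3.93 without the winter library of that bear (adjusted p = 0.000729), and limma voom called it at −3.51 (adjusted p = 0.00445).

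**Figure D2:**
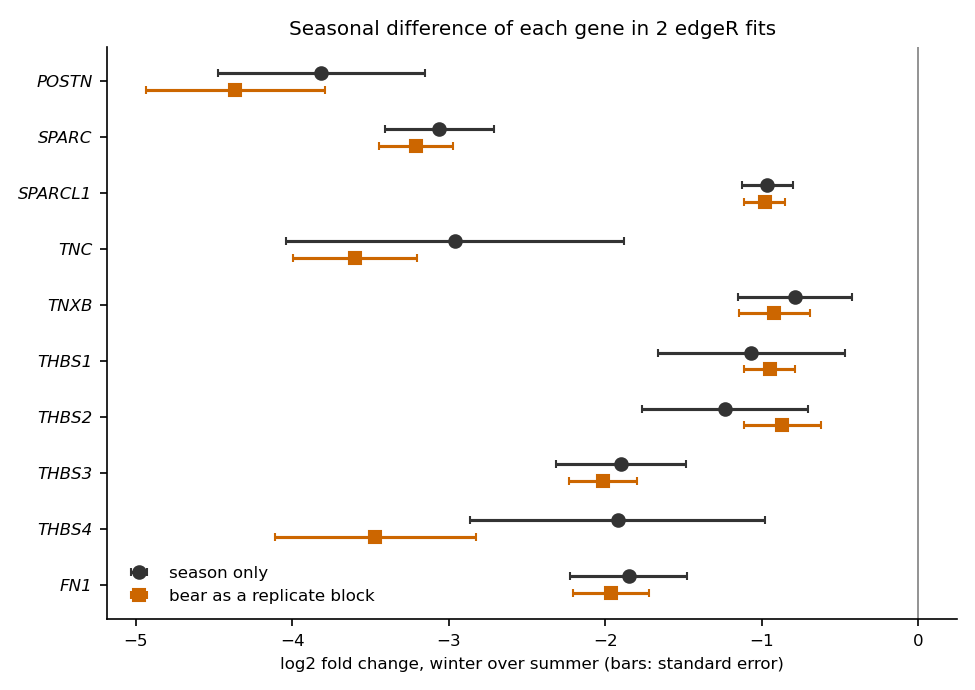
Log2 fold change of winter over summer for each gene with its standard error (SE), from edgeR with season as the only term (circles) and with a block for the bear (squares). All 20 estimates lie below 0, and those of THBS4 differ most, −1.92 against −3.47.

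Bears 1509 and 1511 kept the highest winter levels, each for a different set of genes. Of the 10 genes, 7 had their highest winter library in bear 1511 (TNC, TNXB, the 4 thrombospondins and FN1) and 3 in bear 1509 (POSTN, SPARC and SPARCL1). The median difference of the 10 genes within a bear was −1.26 on the log2 scale in bear 1511 and −1.44 in bear 1509, and between −2.61 and −2.23 in the other bears. On the first principal component of all genes, which separated the seasons, the winter libraries of bears 1511 and 1509 lay at 25.5 and 30.2, nearer to the summer libraries (−65.8 to −41.9) than the other winter libraries did (59.0 to 74.4). On the second component the winter library of bear 1509 lay at −98.6, where the other winter libraries lay at 6.35 to 23.1. Without the winter library of bear 1511, 9 of the 10 genes were called lower (20.9% of all genes), the exception being THBS1. Without the winter library of bear 1509, 5 were called (21.7% of all genes), TNC being lost.

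Markers of tendon cells were counted beside these values. Of the 7 listed (SCX, TNMD, MKX, FMOD, CHAD, EGR1 and KERA), 4 had their highest summer library and 5 their highest winter library in bear 1511. The exceptions were MKX, EGR1 and KERA in summer, highest in bear 1512, and SCX and EGR1 in winter, highest in bear 1317. EGR1, an early response gene that many cells make, stood at 19.8 CPM in summer and 75.1 CPM in winter in bear 1511, against up to 164 and 212 CPM in other bears. TNMD, which encodes the tendon membrane protein tenomodulin, stood at 67.8 CPM in summer and 23.8 CPM in winter in that bear, and at most at 1.95 CPM in the winter libraries of the others. FMOD, the collagen-binding proteoglycan fibromodulin, stood at 410.0 and 207 CPM in bear 1511, with at most 24.6 CPM in the other winter libraries. COMP, which is not on the list and was chosen after its values were seen, was at 92.5 and 60.8 CPM in bear 1511 and at most at 6.02 CPM in the other winter libraries. The 7 markers summed to 75.8 to 553 CPM in summer and 30.7 to 335 CPM in winter, bear 1511 being the highest in both seasons, and none was at 0 throughout. With season as the only term 1 of 7 was called lower, KERA, and 0 higher in edgeR (0 before adjustment). Of all genes tested 19.9% were lower in that fit, so the 1 of 7 lay near that share. With the replicate block 5 of 7 were lower, where 21.2% of all genes were. The part of tendon or fascia in a biopsy in the levels of TNC, THBS4 and the other genes was not tested.

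**Figure D3:**
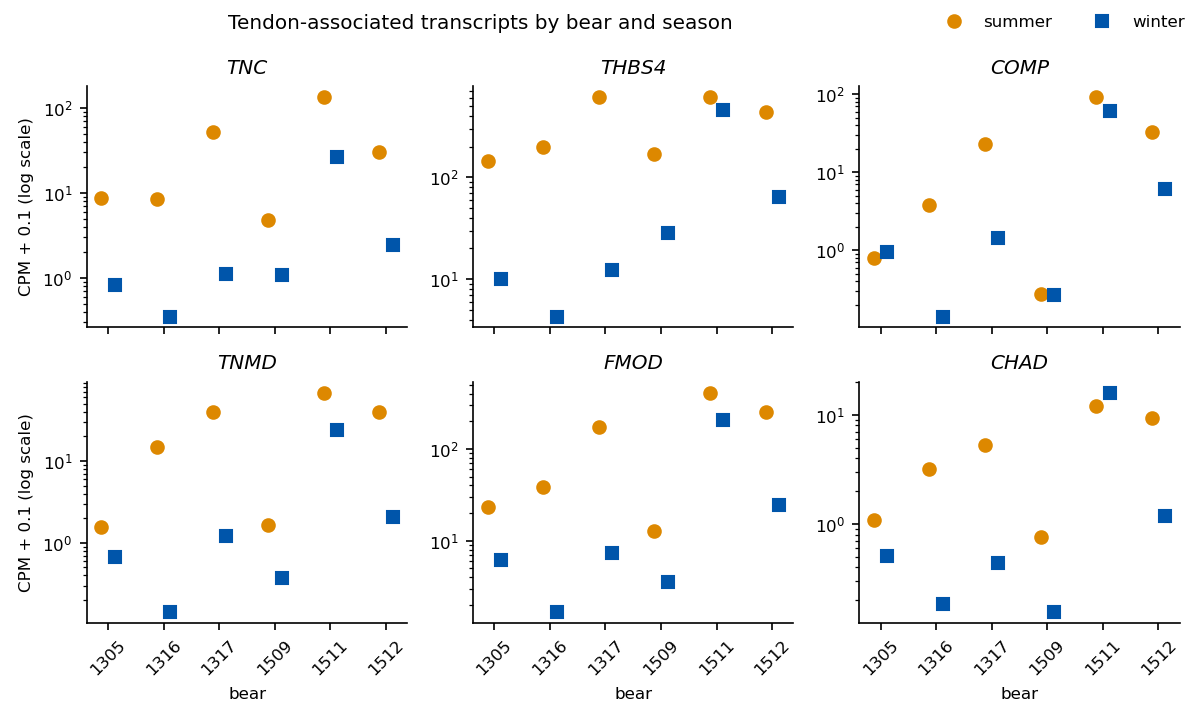
CPM plus 0.1, on a log scale, of TNC, THBS4, COMP and the tendon markers TNMD, FMOD and CHAD in the summer (circles) and winter (squares) library of each bear. In winter bear 1511 is the highest in each panel, for THBS4 at 456 CPM against at most 63.3 CPM in the other bears. The markers shown are among the 5 of 7 that were highest in bear 1511 in winter. SCX and EGR1, highest in bear 1317, are not shown, so this likeness of the panels follows in part from the choice.

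Relatives were then set against each other within each library, as the log2 ratio of their reads, which needs no scaling between libraries. Of 8 such ratios, 4 differed between seasons at an adjusted p below 0.05 by a two-sided exact permutation test with Benjamini-Hochberg adjustment over the 8. The ratio of SPARCL1 to SPARC averaged −2.11 ± 0.35 in summer (SD, n = 6 bears) and 0.11 ± 0.55 in winter, with no overlap. SPARC thus lost ground to SPARCL1 by 4.63-fold (exact p = 0.00216, adjusted p = 0.0173), in 6 of 6 bears. The ratio of TNXB to TNC rose by 2.81 (exact p = 0.0238, adjusted p = 0.0476), in 6 of 6 bears as well.

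Among the thrombospondins, the ratio of THBS4 to THBS1 averaged 2.77 ± 0.49 in summer (SD, n = 6 bears) and 0.25 ± 1.78 in winter, lower in 5 of 6 bears (exact p = 0.0108, adjusted p = 0.0346). That of THBS4 to THBS2 went from 4.35 ± 0.70 to 1.72 ± 1.92 (SD, n = 6 bears), also lower in 5 of 6 (exact p = 0.013, adjusted p = 0.0346). Bear 1511 was the exception in both. The ratio of THBS3 to THBS1 was lower in 6 of 6 bears, by 1.08 on average, but its libraries overlapped between seasons (exact p = 0.173, adjusted p = 0.198), and those of THBS3 to THBS2, THBS4 to THBS3 and THBS2 to THBS1 had adjusted p values of 0.104, 0.167 and 0.82. An exact sign-flip test of the differences within bears, with the bear as a replicate block, cannot go below p = 0.03125 with 6 bears. It gave an adjusted p of 0.0833 for SPARCL1 to SPARC, for TNXB to TNC and also for THBS3 to THBS1. For THBS4 to THBS1 and THBS4 to THBS2 the adjusted p values were 0.1 and 0.125. With 8 ratios a difference at that smallest p passes the adjustment only if at least 6 of them reach it, and 3 did. The paired test thus could not call those 3 and says nothing of their stability. By the exact sign-flip test THBS4 to THBS1 and THBS4 to THBS2 lay above 0.05 before adjustment, at p = 0.0625 and p = 0.09375. For these ratios the lack of a paired call was not set by the adjustment alone, and bear 1511 went the other way in both. The call of TNXB to TNC was lost when 1 was added to each count in place of 0.5 (adjusted p = 0.0519).

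**Figure D4:**
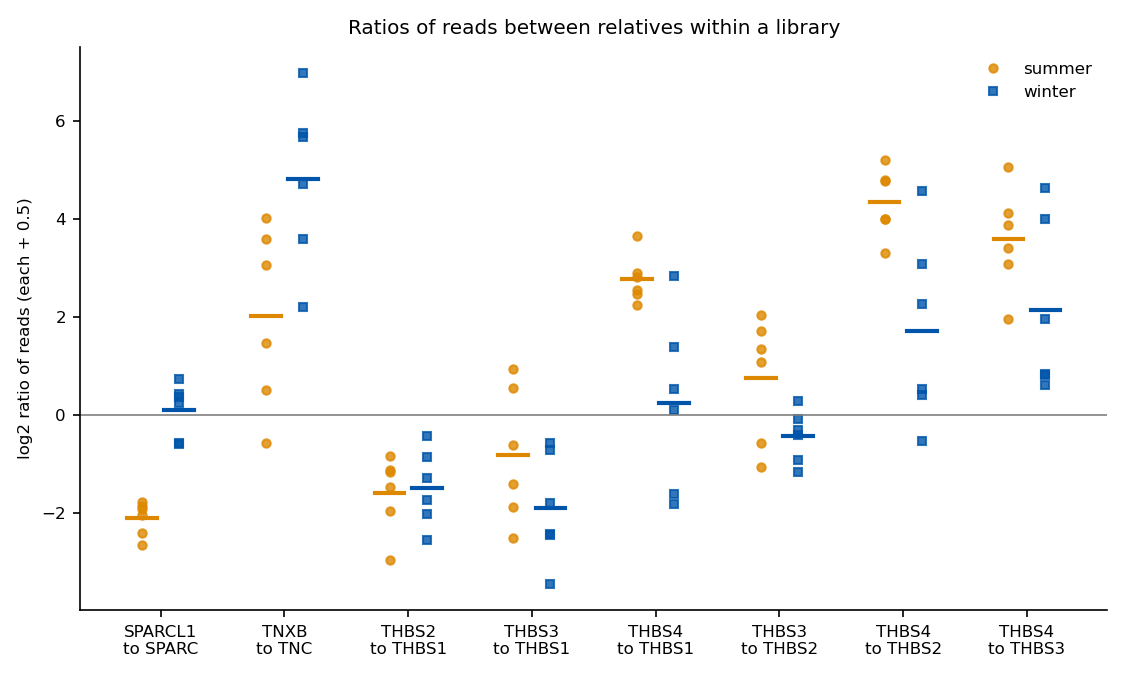
Log2 ratio of the reads of a pair of related genes, each plus 0.5, in the 6 summer (circles) and 6 winter (squares) libraries, with the mean of each season as a bar. Only for SPARCL1 to SPARC do the seasons not overlap.

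The genes around the 10 in the matrix were counted from lists of symbols. Of all genes tested, 19.9% were lower and 19.6% higher with season as the only term, and 21.2% and 19.6% with the replicate block. Of 46 other matricellular proteins and matrix glycoproteins tested, 25 were lower and 0 higher in edgeR (1 higher without adjustment, and 1 in the DESeq2 fit that holds a block), with a median log2 fold change of −1.34. With the replicate block 32 were lower. The largest falls shared by 6 of 6 bears were those of MATN3, a matrilin of cartilage, at −3.20 (adjusted p = 0.000537), FBLN7, a fibulin, at −3.16 (adjusted p = 0.00165), ABI3BP at −2.46 (adjusted p = 0.0029), and MFAP2, a protein of microfibrils, at −2.42 (adjusted p = 0.00263). MATN3 had at most 43 reads per library. SPARC and periostin bind fibrillar collagens, of which 8 chains were listed. Of these 8, 6 were lower and 0 higher in edgeR (0 before adjustment), with a median of −2.36. The falls ran from −4.59 for COL1A1 (adjusted p = 0.000203) to −1.31 for COL5A3. The list does not cover the whole class, and COL2A1 (−3.78, adjusted p = 0.0106, lower in 5 of 6 bears) was not on it. COL3A1 stood at −4.17, COL1A2 at −3.74 and COL5A1 at −2.85, each lower in 6 of 6 bears. Summed, the 8 chains lay at 3651 to 10929 CPM in summer and at 172 to 1190 CPM in winter. The sum was highest in winter in bear 1509, where COL3A1 gave 658 CPM of it, but 6 of the 8 chains had their highest winter library in bear 1511, and only COL3A1 and COL5A2 in bear 1509. COL11A1 (−1.81, adjusted p = 0.124) and COL11A2 (0.28, adjusted p = 0.755) were not called.

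Of 30 receptors and binding partners of the 10 proteins tested, 17 were lower and 2 higher, where 19.9% and 19.6% of all genes were, with a median log2 fold change of −0.55. Named by the largest changes in 6 of 6 bears, ITGA11, a collagen-binding integrin chain, was at −2.79 (adjusted p = 0.000916), SDC1, a heparan sulfate proteoglycan of the cell surface, at −2.58 (adjusted p = 0.00174), BMP1, the protease that trims procollagens, at −2.38 (adjusted p = 3.92e-05), and ITGA2, a collagen receptor chain, at −1.90 (adjusted p = 0.00169). LRP8, a receptor of the LDL receptor family, rose by 1.24 (adjusted p = 0.00293) on the log2 scale, from only 8 to 49 reads per library. The other gene called higher was ITGA9, at 0.86 (adjusted p = 0.0451), higher in 5 of 6 bears, and this call was lost with the replicate block (0.70, adjusted p = 0.0916). The integrin chains of the classical fibronectin receptor, ITGA5 at −1.37 (adjusted p = 5.83e-05) and ITGB1 at −0.54 (adjusted p = 0.00123), were both lower in 6 of 6 bears. CD47 was lower at −0.56 (adjusted p = 0.0034), whereas CD36 stood at 0.04 (SE 0.16, adjusted p = 0.852) and CACNA2D1, a calcium channel subunit that binds thrombospondins, at −0.11 (SE 0.15, adjusted p = 0.574). ITGA5, ITGB1, CD47, CD36 and CACNA2D1 were chosen for their roles after their values were seen.

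**Figure D5:**
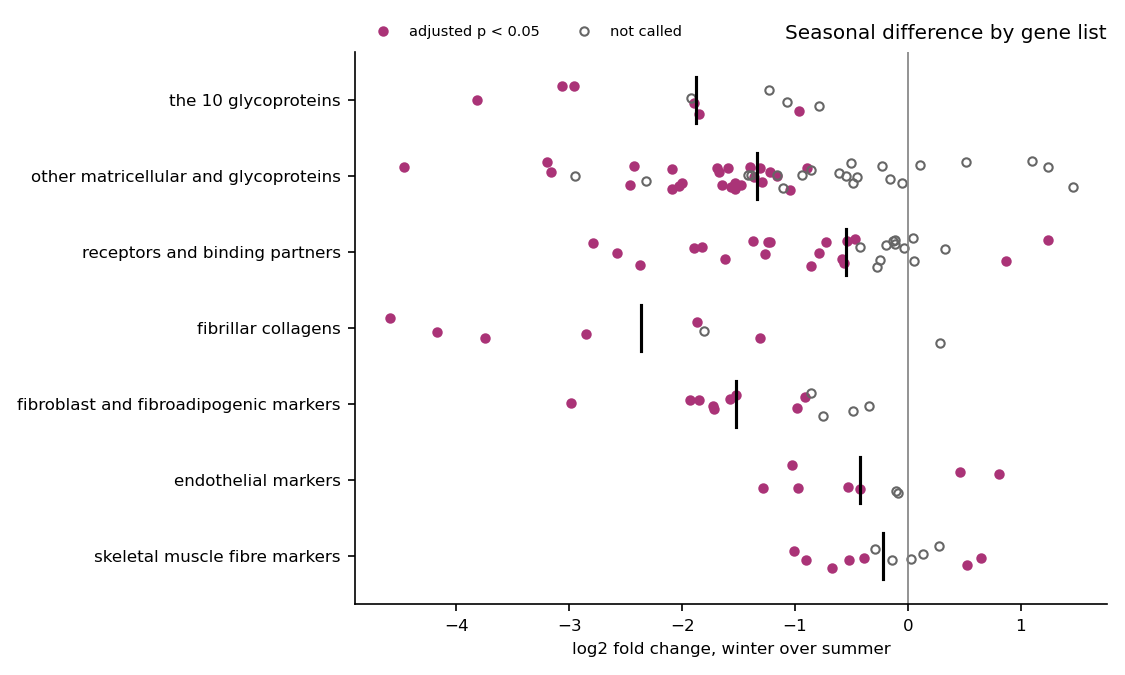
Log2 fold change of winter over summer for every tested gene of 7 lists, filled where called at an adjusted p below 0.05, with the median of each list as a bar. The medians lie at −1.88 for the 10 glycoproteins, −1.34 for other matricellular proteins and −0.55 for receptors and partners.

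Markers of the other cells of muscle were counted in the same way. With season as the only term 19.9% of all genes tested were lower and 19.6% higher. With the replicate block 21.2% were lower and 19.6% higher. Of 13 markers of fibroblasts and fibroadipogenic cells tested, 9 were lower and 0 higher in edgeR (0 higher before adjustment), and 12 were lower with the replicate block. Their sum lay at 1482 to 2329 CPM in summer and at 514 to 1779 CPM in winter, the highest winter library being bear 1511. SERPINF1 (−2.99), LUM (−1.93), DPT (−1.85) and NT5E (−1.73) had the largest falls in 6 of 6 bears, each at an adjusted p of 0.00102 or less. PDGFRA, which defines fibroadipogenic cells, was at −0.49 (SE 0.21, adjusted p = 0.0772). Of 9 endothelial markers 5 were lower (VWF, CDH5, KDR, TIE1 and PECAM1) and 2 higher (ERG and CLDN5), with sums of 673 to 994 CPM in summer and 488 to 557 CPM in winter. Of 8 mural cell markers 4 were lower (CNN1, RGS5, KCNJ8 and CSPG4) and 0 higher in edgeR, with 0 higher before adjustment (445 to 560.3 CPM and 210.1 to 306 CPM). Of 10 macrophage and leukocyte markers 7 were lower and 0 higher, with 0 higher before adjustment (112 to 166 CPM and 46.8 to 87.9 CPM). The part of these cells in the falls of the 10 genes was not tested, and in bulk muscle fewer cells of a type and less RNA per cell cannot be told apart.

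Of 6 platelet markers, PF4 and PPBP were not matched by symbol, and GP9, GP1BA and TREML1 had too few reads to be tested. ITGA2B was tested and not called, at 0.382 to 1.19 CPM in summer and 0.521 to 1.07 CPM in winter. The part of platelets in the levels of THBS1 and SPARC was not tested. Schwann cell markers summed to 20.9 to 49.3 CPM in summer and to 8.92 to 28.2 CPM in winter apart from bear 1509, at 127 CPM, with 1 of 7 called lower, S100B, and 0 higher in edgeR (0 before adjustment). Adipocyte markers summed to 299 to 1424 CPM and 217 to 468 CPM, with 1 of 6 lower, FABP4, and 1 higher, LEP, whose call was lost with the replicate block (adjusted p = 0.0629). Muscle fibre markers marked the tissue in every library, at 131972 to 217755 CPM in summer and 143364 to 182298 CPM in winter summed over 12 genes, of which 5 were lower (MB, ACTA1, ATP2A2, ATP2A1 and CASQ1) and 2 higher (TTN and NEB). Of all genes tested 19.9% were lower and 19.6% higher, and the counts of lower Schwann cell and adipocyte markers lay near that share. These marker genes were named for their calls, after their values were seen.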

How the data were processed

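Stranded libraries of poly-A RNA from 12 muscle biopsies were sequenced as single reads, in lanes whose assignment is not given in the sources used here. The authors aligned them to the brown bear assembly ASM358476v1 with TopHat2 (version 2.1.1, per the labels) and counted reads per gene by strand with featureCounts (1.6.2). The deposited values are these raw counts, neither normalized nor filtered, 16742406 to 32140160 per library. No table used here gives transcript lengths, and no sequences were used. Shares and ratios of reads between genes were therefore not corrected for length, and they were compared only between seasons.

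Genes with fewer than 30 reads in all were dropped, which kept 17290 genes and all 10 members. Counts were scaled by TMM and fitted with edgeR 4.0.16 (glmQLFit, glmQLFTest; R 4.3.3) with season as the only term. Log2 CPM used a prior count of 2 and ratios an offset of 0.5. Alternatives were the bear as a replicate block, DESeq2 1.42.0, limma voom (3.58.1), RLE, library totals, other filters, each bear left out and, added after seeing the data, the winter library of bear 1509 or 1511 left out. DESeq2 leaves some adjusted p values undefined, and these were not counted. The study sampled the same animals in both seasons. Over genes, deviations from a season's mean correlated at 0.0903 to 0.344 within a bear and at a median of −0.0634 between bears. The highest value between bears was 0.142, above the 0.0903 of bear 1509, so the ranges overlapped. P values of the season-only fit and of the permutation test treat the 12 libraries as independent, so they mix the spread between and within bears. Those of the fits with a block measure the spread of the seasonal difference among these 6 bears. The edgeR and DESeq2 fits, with and without the block, and limma voom were also run on simulated counts. These counts held no effect of the bear, so they cannot compare the block with the season-only fit.

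The members, the lists and the naming rule were chosen with earlier results of these data known. Named were the 10 members, from each list up to 4 called genes with the largest rise and up to 4 with the largest fall in 6 of 6 bears, and the 3 genes whose levels followed each member most closely within seasons.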

Additional observations from a re-analysis of the deposited data

Results flagged for a closer look

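Values are given here that lay apart from the others of their group, by a share of the whole range above Dixon's 95% critical value of 0.625. Of 46 such tests, 2 passed, and chance alone flags about 1 in 20. The winter minus summer difference of SPARC was −1.83 on the log2 scale in bear 1509, where the nearest other bear stood at −3.37, a gap of 0.861 of the range. THBS2 in the winter library of bear 1511 lay at 4.26 log2 CPM, where the next winter library lay at 3.19, a gap of 0.631 of the range. The same bear had the highest THBS2 in summer too, at 61.8 CPM.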

How the results depend on the processing

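With the bear as a replicate block, 10 members were called lower in edgeR and 10 in DESeq2, against 6 in edgeR with season as the only term. Of all genes, 21.2, 20.2 and 19.9% were. The stricter limits were passed by 9 and 10 members, against 5. With season only, 12% of all genes passed them. For the fits with a block that share was not counted, so the 9 and 10 cannot be set against it. Without the winter library of bear 1511, 8 passed those limits, as did 12.7% of all genes. Leaving out each bear in turn gave 5 to 8 members called lower and 3 to 8 past the stricter limits, where 16.1 to 19.7% and 7.79 to 11.4% of all genes were. The 8 came without bear 1511, when 18.7% and 10.5% of all genes were. Of the other matrix proteins, 1 was higher in limma voom, 1 in DESeq2 with the replicate block, and 0 to 1 with a bear left out. Of the receptors and partners 1 was higher instead of 2 with the edgeR replicate block, in limma voom, with library totals and without a filter, and 1 to 2 with a bear left out. Leaving out a bear moved the ratio of SPARCL1 to SPARC between 2.09 and 2.40, of TNXB to TNC between 2.51 and 3.23, of THBS4 to THBS1 between −3.11 and −2.11 and of THBS4 to THBS2 between −3.41 and −2.09. With 5 bears the smallest exact p of the permutation test is 0.00794. Whether a ratio at that p passes the adjustment over the 8 depends on the p values of the other ratios. Without bear 1511 these 4 ratios kept their calls, while without any other bear they did not. SPARCL1 to SPARC then stood at an adjusted p of 0.0635, the value of a ratio alone at the smallest p. Without bear 1511, where other ratios shared the smallest p, its adjusted p was 0.0212. The loss of its call thus turned on the p values of the other ratios and says nothing of the stability of this ratio. The ratio of THBS2 to THBS1, not called at 0.10, turned to −0.015, −0.013 and −0.063 without bear 1305, 1316 or 1317, so that leaving out a bear moved it between −0.063 and 0.34. With the sign-flip test the differences were 2.21, 2.81, −2.53 and −2.63, as with season alone, and only their p changed. With an offset of 1 the ratio of TNXB to TNC was 2.77. Over the 16 alternatives to the season-only fit, 139 of the 160 member values kept their direction and their side of the threshold, 15 gained a call and 6, those of TNC, lost it, and 0 changed direction. Winter libraries of POSTN and TNC with as few as 9 and 6 reads limit the precision of their folds.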

Other observations

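Within a season, the genes whose levels followed a member most closely differed between members. Likeness was the Pearson correlation of log2 CPM with the season means subtracted, over 12 libraries that come in pairs from 6 bears, and is given as a description. TNC was closest to COL8A2 (0.98), a network-forming collagen, to FMOD (0.97) and to PRELP (0.95), a proteoglycan of tendon and cartilage. THBS1 was closest to CTGF (0.94), ANGPTL5 (0.93) and EPHB3 (0.91), and THBS2 to AEBP1 (0.94), CUNH2orf40 (0.94) and COL2A1 (0.93). SPARC was closest to GRIK5 (0.96), COL3A1 (0.95) and CCND2 (0.95), FN1 to PTGFRN (0.96), SNX33 (0.96) and PROS1 (0.95), and TNXB to FBLN2 (0.95), LRP1 (0.95) and PLAC9 (0.92). For THBS3 the closest were SFXN3 (0.94), MRC2 (0.92) and SLC38A5 (0.92), for THBS4 PTPRR (0.94), ANGPTL7 (0.94) and IGSF1 (0.93), for POSTN PRKCZ (0.92), MYCL (0.90) and PIGB (0.89), and for SPARCL1 DGKG (0.93), VPS41 (0.93) and UBASH3B (0.92).

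Among the members themselves, TNC was most like THBS4 (0.91), THBS2 (0.86) and THBS1 (0.84) by this measure, FN1 was most like THBS3 (0.89), and POSTN and SPARCL1 stood at 0.74. POSTN and TNC stood at −0.06.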
